A study of Homo sapiens with 3 samples.

Results

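The transcripts described here come from 5 genes of chromatin assembly and remodelling, NPM1, NAP1L1, SET, PTMA and HELLS, and the data are the places in them where RNA crosslinked to the RNA-binding protein HNRNPA0 was recovered. The peaks were taken from the 3 deposited lists by the Ensembl gene ID in each peak's name. Of 50800 lines in the 3 lists, 201 carried the ID of a member gene, with 62, 67 and 72 in replicates 1, 2 and 3, and of 6583 gene IDs with a peak 5 were members. All 201 lines lay inside the RefSeq interval of their gene and on its strand. The genes were chosen by the recurrence and read numbers of their peaks in these same lists, so read numbers and the counts of recurrent regions below are a description and carry no test.

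Histone chaperones are proteins that hold histones away from DNA and hand them on during replication, transcription and repair, and chromatin remodellers use ATP to move or exchange nucleosomes. NPM1, nucleophosmin, is an abundant nucleolar chaperone that also takes part in ribosome assembly. NAP1L1 carries histones H2A and H2B, and SET, also known as TAF-I beta, binds histones and inhibits the phosphatase PP2A. PTMA, prothymosin alpha, is a small, very acidic nuclear protein that binds linker histone H1. HELLS, also called LSH, is a helicase of the SNF2 family needed for normal DNA methylation. HNRNPA0, the tagged protein, belongs to the hnRNP A/B family and binds AU-rich messenger RNA.

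All 3 libraries belong to 1 group. HEK293T, a human embryonic kidney line that carries the SV40 large T antigen, is given as WT in genotype. Each 15 cm plate received 750 ng of a plasmid that makes HNRNPA0 with an HA tag, so each library comes from cells that made the tagged protein on top of the endogenous one. Ultraviolet light of 254 nm (0.3 J/cm2) fixed RNA to protein, RNase I trimmed the RNA, and RNA on anti-HA beads was read by easyCLIP, in which a barcode in the 3' adapter marked each replicate before the replicates were pooled. The labels do not say that the replicates were separate cultures, so the spread given here may be technical. No library without the tagged protein and no measure of RNA levels was used here, so an abundant RNA and a well-bound RNA cannot be told apart.

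The lists held 15661 to 17791 distinct peaks with a median read number of 4 in each list. The read number is the whole number that ends a peak's name, taken as the reads in the peak. Among the peaks of 1 member gene in 1 replicate it fell as the deposited p-value rose, with a Spearman correlation across peaks between -0.79 and -1 in the 15 gene and replicate pairs. Nuclear-encoded peaks summed to read numbers of 100038, 99141 and 114203 in replicates 1, 2 and 3. Peaks in the tagged protein's own gene, HNRNPA0, summed to 308, 358 and 340. Neighbouring peaks may hold the same reads, and their sum is therefore no count of molecules. Coordinates are those of hg38, counted from 1. The sequence under the peaks was not analysed here, and exons, introns and UTRs were not told apart.

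PTMA, NPM1, NAP1L1 and HELLS held similar summed read numbers, and SET held fewer. PTMA summed to 331, 259 and 231 in replicates 1, 2 and 3, which is 274 ± 51.6 (SD, n = 3). NPM1 summed to 256, 285 and 182 (241 ± 53.1). NAP1L1 summed to 292, 189 and 218 (233 ± 53.1). These chaperone transcripts overlapped one another in range over the replicates. HELLS, the remodeller, summed to 151, 247 and 255 (218 ± 57.9), and was the only member with its lowest value in replicate 1. SET summed to 81, 96 and 62 (79.7 ± 17.0), below every value of the other members. Ordered by sum, the neighbours PTMA and NPM1, NPM1 and NAP1L1, and NAP1L1 and HELLS overlapped in range, while HELLS and SET did not. The place of HELLS turns on how its peaks are counted. With the peaks that the lists enter under a second gene ID in its interval, it summed to 208, 430 and 381 (340 ± 117). This was the highest mean of the 5, but only identical lines were counted once. Of 15 lines under the second ID in each list, 10, 11 and 11 overlapped a HELLS peak and 6, 1 and 5 were identical to one. The 340 thus counts part of the same signal under both IDs. The HELLS range with both IDs overlapped those of PTMA, NPM1 and NAP1L1 and still lay above SET. As shares of the nuclear-encoded read number, PTMA took 0.265% ± 0.0644, NPM1 0.234% ± 0.0667, NAP1L1 0.224% ± 0.0584, HELLS 0.208% ± 0.0509 and SET 0.0774% ± 0.0215 (SD, n = 3). PTMA ranked 15, 24 and 28 by this sum among the 4680, 4665 and 5054 nuclear gene IDs of replicates 1, 2 and 3, and SET ranked 183, 128 and 307.

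Per 1000 nt of gene interval the order changed, because the genes differ widely in length. PTMA, the shortest gene, held 54.4 ± 10.3 read numbers per 1000 nt, and NPM1 held 10.1 ± 2.23 (SD, n = 3). SET followed with 6.14 ± 1.31 and NAP1L1 with 4.84 ± 1.10, and the ranges of these neighbours overlapped. HELLS, the longest gene, was lowest at 3.20 ± 0.850, with all 3 values under those of NAP1L1. With the peaks of both gene IDs in its interval HELLS held 4.99 ± 1.71, above the mean of NAP1L1 and with an overlapping range. That value counts overlapping lines under both IDs unless they are identical, so the order depends on the counting too. Gene intervals include introns, so this density is per length of gene and not of messenger RNA.

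**Figure D1:**
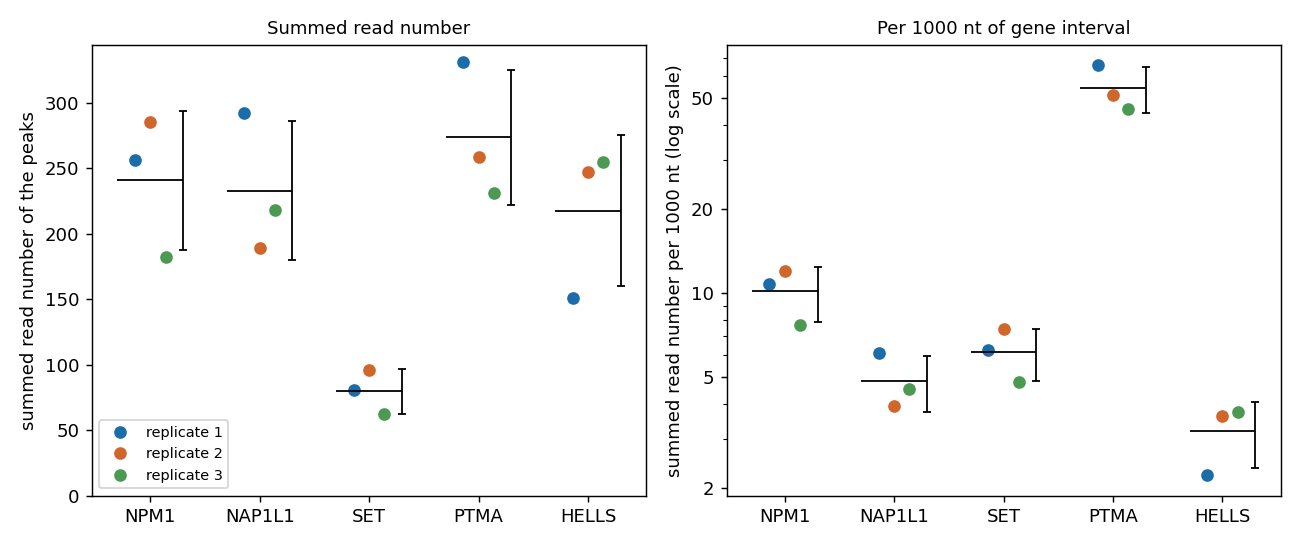
Summed read number of the peaks of each gene (left) and the same per 1000 nt of gene interval on a log scale (right). Points are the 3 replicates, horizontal lines the mean and error bars the SD (n = 3); SET is lowest in the left panel at 79.7 and PTMA highest in the right panel at 54.4.

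Merging peaks that overlapped by 1 bp or more gave 99 regions in the 5 genes, of which 34 were found in all 3 replicates, 15 in 2 and 50 in 1. Over all gene IDs 6.26% of 39950 merged regions were found in all 3 replicates. NAP1L1 held 12 such regions, HELLS 7, NPM1 and PTMA 6 each, and SET 3. Of all gene IDs with a peak, 21.6% held at least 1 such region and 3.69% held 3 or more, the number of SET. Since recurrence chose the members, nothing is read from these shares. PTMA had all of its peaks in recurrent regions in replicates 1 and 3 and 8 of 11 in replicate 2. In HELLS 7 of 12, 8 of 17 and 7 of 24 peaks of replicates 1, 2 and 3 lay in recurrent regions.

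**Figure D2:**
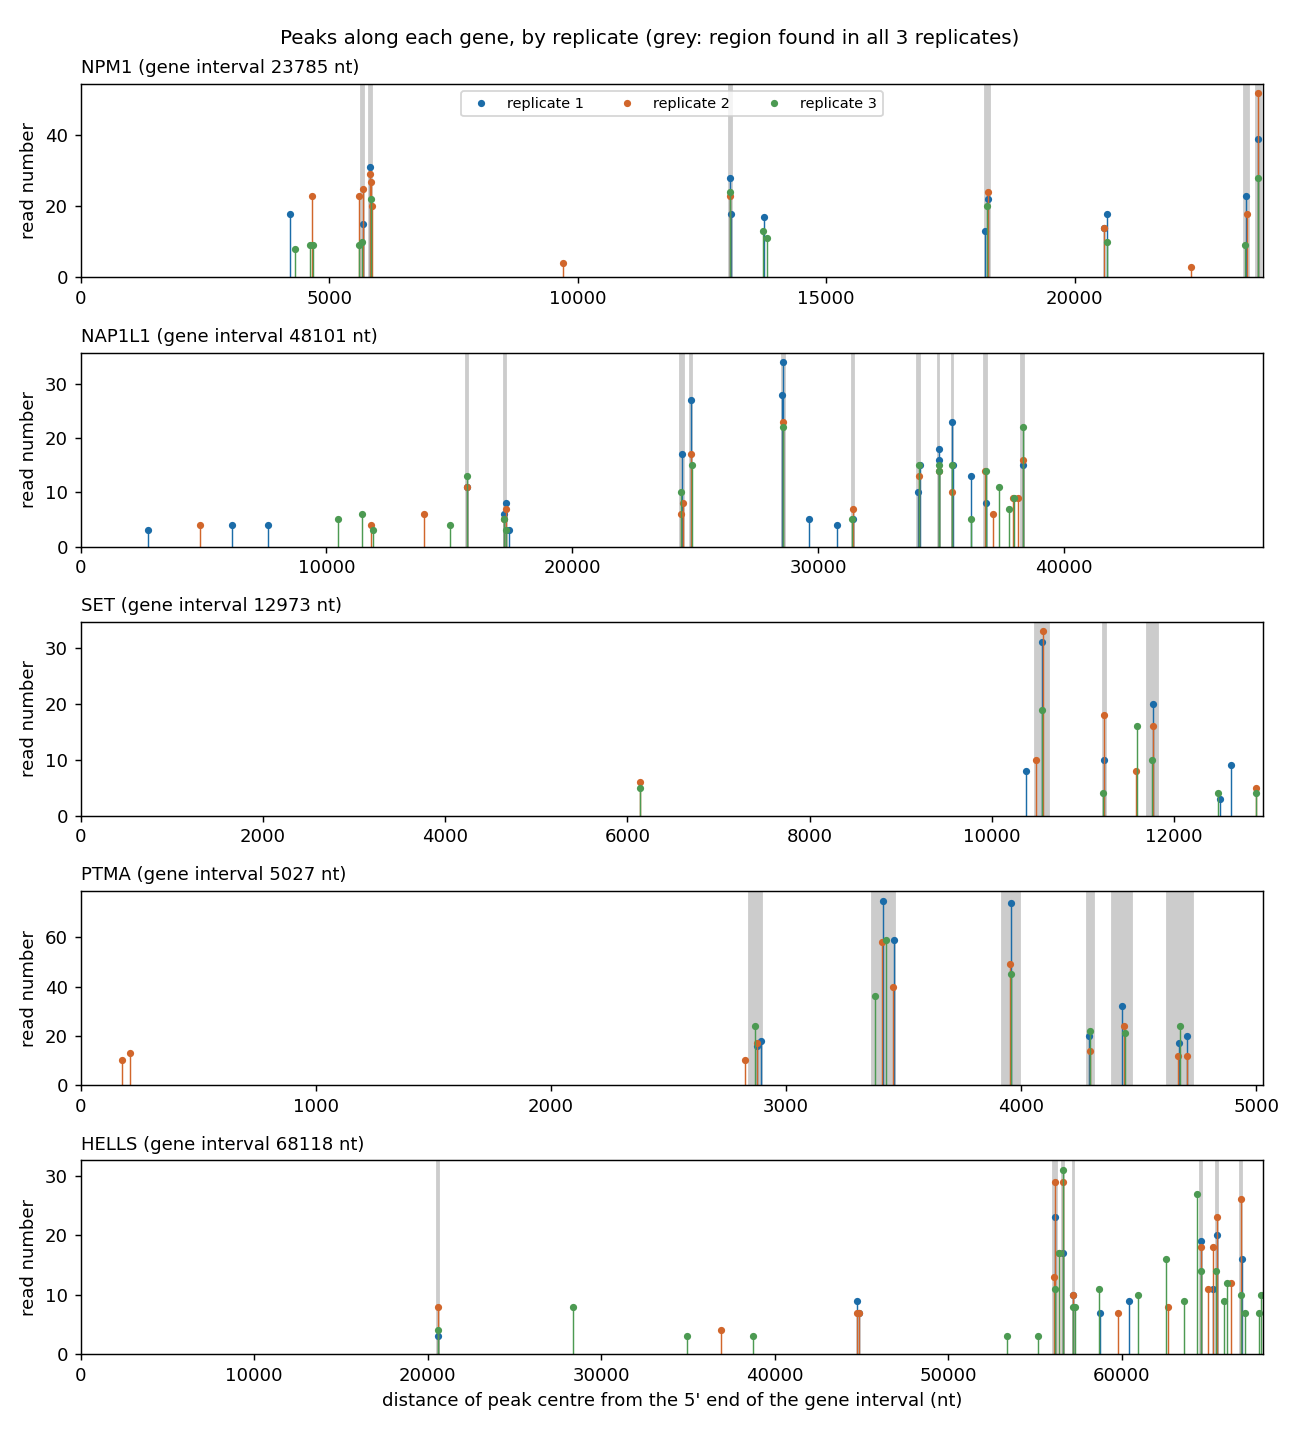
Each peak of the 5 genes by its distance from the 5' end of the gene interval in nt (horizontal) and its read number (vertical), coloured by replicate, with grey bands for the 34 regions found in all 3 replicates. NAP1L1 peaks stop 9712 nt before the end of its interval, and HELLS peaks crowd into the final 20% of the gene.

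NPM1 lies on chromosome 5 from 171387116 to 171410900 (hg38, plus strand, 23785 nt), and its peaks fell into separate clusters from 17.7% of its length to its very end. Its strongest region, chr5:171410755-171410865, ended 35 nt before the annotated 3' end and had highest read numbers of 39, 52 and 28 in replicates 1, 2 and 3 (39.7 ± 12.0). A neighbouring region at chr5:171410527-171410615 had 23, 18 and 9. The final 10% of NPM1, which holds both, took 23.4% ± 2.74 (SD, n = 3) of its sum.

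A second NPM1 cluster lay 24.5% of the way along the gene. Its region at chr5:171392914-171392979 had highest read numbers of 31, 29 and 22, and the one just before it, chr5:171392761-171392816, had 15, 25 and 10. The stretch from 20% to 30% of the gene, which holds this cluster, took 18.0%, 43.5% and 22.5% of the sum in replicates 1, 2 and 3. Its share was highest in replicate 2, which listed chr5:171392914-171392979 as 3 peaks where the other lists had 1. Their read numbers of 29, 27 and 20 were all summed, so this contrast is in part one of how peaks were split. Between these clusters, chr5:171400153-171400211, at 54.9% of the gene, had 28, 23 and 24, and chr5:171405302-171405403, at 76.7%, had 22, 24 and 20. Only 61.7% ± 14.0 of the NPM1 sum lay in the 3' 50% of the gene, and each of the other 4 members had more there, from 83.1% in NAP1L1 to 97.0% in PTMA.

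Besides these 6 regions, NPM1 held 5 regions in 2 lists and 5 in 1. The strongest peak seen in a single list, chr5:171391307-171391339 with a read number of 18 in replicate 1, lay 84 nt from the nearest peak of another list. In replicate 3 all but 1 of the 6 recurrent regions had their lowest value. RefSeq lists 50 pseudogenes named after NPM1, whose peaks and those of NPM1 are uncertain where reads match both. Of these only NPM1P27 held peaks, 1 in each list with read numbers of 8, 7 and 6, and how the authors placed reads that match several loci is not given in the sources used here.

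NAP1L1 lies on chromosome 12 from 76036585 to 76084685 (minus strand, 48101 nt) and held the most recurrent regions of the 5. They spanned 22695 nt, from chr12:76046297 to chr12:76068991, which is 47.2% of the gene, and the gaps between neighbours had a median of 1387 nt. The strongest was chr12:76056041-76056162, with highest read numbers of 34, 23 and 22 (26.3 ± 6.66). Next came chr12:76059797-76059877, with 27, 17 and 15, and chr12:76046297-76046419, with 15, 16 and 22. The former regions were highest in replicate 1 and the last region in replicate 3.

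In 9 of the 12 NAP1L1 regions the 3 libraries lay within 2-fold of one another. At chr12:76050531-76050646 the highest read numbers were 15, 13 and 15, at chr12:76068909-76068991 they were 11, 11 and 13, and at chr12:76067446-76067474 they were 6, 5 and 5. The other 3, at chr12:76067371-76067408 with 8, 7 and 3, chr12:76049199-76049252 with 23, 10 and 15, and chr12:76060138-76060284 with 17, 8 and 10, differed by more. The stretch from 70% to 80% of the gene took 50.7% ± 6.71 (SD, n = 3) of the NAP1L1 sum, and that from 50% to 60% took 28.8% ± 7.37.

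No NAP1L1 peak of any list lay in the final 20% of the gene interval. The last one ended 9712 nt before the annotated 3' end, which is the outer end of the RefSeq gene interval. Where single transcripts end inside that interval was not examined, so this is no distance to the end of a messenger RNA. The 17 NAP1L1 regions seen in 1 list were low, with a highest read number of 11 and a median of 4. RefSeq lists 3 NAP1L1 pseudogenes, and none held a peak.

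SET lies on chromosome 9 from 128683424 to 128696396 (plus strand, 12973 nt), and nearly all of its signal sat in the last part of the gene. Its 3 recurrent regions lay within 1350 nt of one another. The strongest, chr9:128693895-128694044, had highest read numbers of 31, 33 and 19 (27.7 ± 7.57), and chr9:128695127-128695244 had 20, 16 and 10. The third, chr9:128694641-128694672, had 10, 18 and 4, a ratio of 4.50 between the highest and the lowest value that was the widest of the 34 regions. All 3 SET regions were lowest in replicate 3. The final 25% of the gene took 100% of the SET sum in replicate 1, 93.8% in replicate 2 and 91.9% in replicate 3.

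The only SET peaks outside that stretch formed a region at chr9:128689541-128689580, with read numbers of 6 and 5 in replicates 2 and 3 and no peak in replicate 1. It began 319 nt after the nearest upstream start among the 5 start sites that RefSeq gives for SET. A region at chr9:128694957-128695068 was also missing from replicate 1, with 8 and 16 in replicates 2 and 3. Of 19 SET pseudogenes in RefSeq none held a peak. The SET interval overlaps that of DYNC2I2 near its 5' end, and no SET peak lay in the overlap.

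PTMA lies on chromosome 2 from 231708525 to 231713551 (plus strand, 5027 nt) and carried the highest peaks of the 5 genes. At chr2:231711889-231711985 the highest read numbers were 75, 58 and 59 (64.0 ± 9.54). At chr2:231712443-231712516 they were 74, 49 and 45 (56.0 ± 15.7). Every value in these regions stood above every value of the other 4 PTMA regions, which ranged from 12 to 32. Those 4 were chr2:231711367-231711420, with 18, 17 and 24, chr2:231712804-231712831, with 20, 14 and 22, chr2:231712908-231712995, with 32, 24 and 21, and chr2:231713145-231713255, with 20, 12 and 24.

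In all 6 PTMA regions the replicates lay within 2-fold of one another. The stretch from 60% to 70% of the gene took 40.5%, 37.8% and 41.1% of the sum in replicates 1, 2 and 3. Nothing was listed between 5% and 50% of the gene's length. Replicate 2 alone had peaks near the 5' end, at chr2:231708685-231708711 and chr2:231708715-231708749, with read numbers of 10 and 13, the former 160 nt after the annotated start. The nearest peak of another list was 2617 nt or more away from either.

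The lowest PTMA read numbers listed were 16, 10 and 21 in replicates 1, 2 and 3, where the whole lists reach down to 3. NAP1L1 and HELLS were listed down to 3 or 4 in every replicate, SET down to 3, 5 and 4, and NPM1 down to 13, 3 and 8. How the authors' caller sets its limit in each gene is not given in the sources used here. Of 15 PTMA pseudogenes only PTMAP5 held a peak, with a read number of 3 in replicate 1. The microRNA gene MIR1244-1, inside the PTMA interval from 231713314 to 231713398, held none.

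HELLS lies on chromosome 10 from 94545788 to 94613905 (plus strand, 68118 nt), and its peaks were gathered toward the 3' end of that interval. The stretch from 80% to 90% of the gene took 41.7% ± 2.55 (SD, n = 3) of its sum, and the final 10% took 47.9% ± 4.68. The tallest recurrent region, chr10:94602313-94602443, had highest read numbers of 17, 29 and 31, and chr10:94601826-94602039 had 23, 29 and 11. Nearer to the 3' end, chr10:94610266-94610392 had 19, 18 and 14, chr10:94611182-94611306 had 20, 23 and 14, and chr10:94612614-94612727 had 16, 26 and 10. The last of these ended 1178 nt before the annotated end of the gene. Replicate 3 was lowest in 5 of the 7 HELLS regions although it held the most HELLS peaks.

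By the HELLS ID alone, 1 region recurred far from the others, at chr10:94566309-94566418, with highest read numbers of 3, 8 and 4 (5.00 ± 2.65). It lay 30.2% of the way along the gene, and the next recurrent region under the HELLS ID was 35407 nt farther on. Peaks under a second gene ID, described below, start at 94582691, inside this gap, and were not counted for it. Counting the HELLS ID alone, replicate 3 held 15 of the 21 HELLS regions seen in 1 list. Among them was the strongest single-list peak of all 5 genes, chr10:94610042-94610162, with a read number of 27. The nearest peak of another list under the HELLS ID was 103 nt away. This peak lies within the stretch of the second gene ID described below. Whether another list held a peak there under that second ID was not examined.

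The HELLS interval also held peaks under a second gene ID, ENSG00000244332, on the same strand between 94582691 and 94611203. It had 15 lines in each list, of which 10, 11 and 11 overlapped a peak listed for HELLS itself, and 6, 1 and 5 had exactly the same first and last base. The lists thus enter much of the same signal under both IDs. With both IDs joined and identical lines counted once, HELLS had 9 recurrent regions in place of 7 and a summed read number of 340 in place of 218. Overlapping lines that were not identical entered that sum under both IDs. The other 4 intervals held no line of another gene ID on either strand. HELLS has no pseudogene of that naming in RefSeq.

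**Figure D3:**
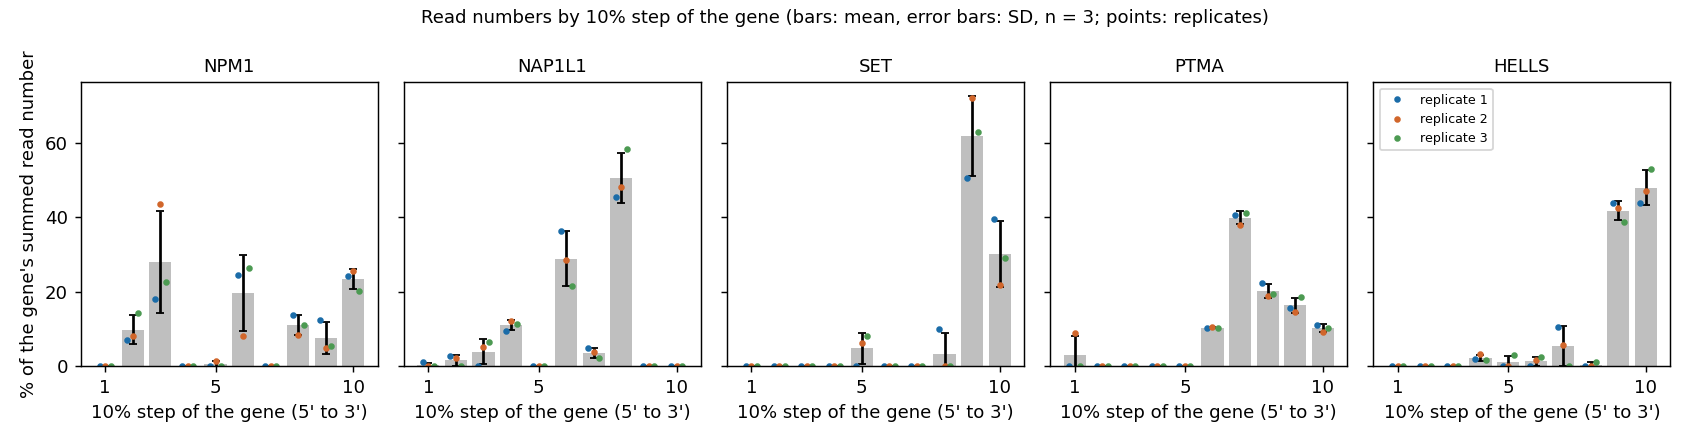
Share of each gene's summed read number in each 10% step of its length, from the 5' to the 3' end, as the mean (bars) and SD (error bars, n = 3) with the replicates as points. HELLS and SET are highest beyond 80% of the gene, NAP1L1 from 70% to 80% at 50.7%, PTMA from 60% to 70%, and NPM1 is spread from 10% to the end.

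The final 10% of the gene interval took a different share in each gene. The interval runs to its outermost annotated end, and where single transcripts end was not examined. How far this shaped the order of the genes was not tested. HELLS was counted here by its own ID, and its share was not recounted with the second ID in its interval. The share was 47.9% ± 4.68 in HELLS, 30.1% ± 8.87 in SET, 23.4% ± 2.74 in NPM1, 10.3% ± 0.961 in PTMA and 0% in NAP1L1 in every replicate (SD, n = 3). HELLS stood above SET, and NPM1 above PTMA, in every replicate, while the ranges of SET and NPM1 overlapped. Both orders rest on the read numbers: with each peak counted once, the final 10% held 40.5% of the peaks in SET and 40.1% in HELLS, and 18.4% in NPM1 and 18.2% in PTMA, and in replicate 1 SET stood above HELLS and PTMA above NPM1. The first 10% of the gene took 2.96% ± 5.13 in PTMA and 0.342% ± 0.593 in NAP1L1, from 1 replicate in each case, and held no peak in the other 3. None of the 201 lines lay in the short window around any start site that RefSeq gives for these genes.

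Recurrent regions hold overlapping peaks by definition, so only finer differences between libraries in position and height are described here. The members were chosen for recurrence and read numbers, so nothing is read from the contrasts with all recurrent regions. The highest points of the peaks, which the lists give as a stretch of up to 4 nt, lay within a median of 15 nt over the 3 replicates in the 34 member regions, against 22 nt in all 2501 recurrent regions of the lists. The largest such distance was 84 nt in the member regions and 294 nt in all recurrent regions. In 7 of the 34 regions all 3 lists began or ended a peak at the very same base, against 6.40% of all recurrent regions. These were 4 regions of NAP1L1 and 1 each of NPM1, SET and PTMA. At chr12:76050531, chr5:171400153, chr2:231712443 and chr9:128694641, for example, the end of the region with the lower coordinate was the same base in every list. On NAP1L1, which is on the minus strand, that is the 3' end of the region. The highest read numbers of the 3 replicates lay within 2-fold of one another in 25 of the 34 regions, which is 73.5% against 76.8% over all recurrent regions. Replicate 1 was the highest in 15 of the 34, replicate 2 in 10 and replicate 3 in 6, with ties in the rest, and replicate 3 was the lowest in 18.

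**Figure D4:**
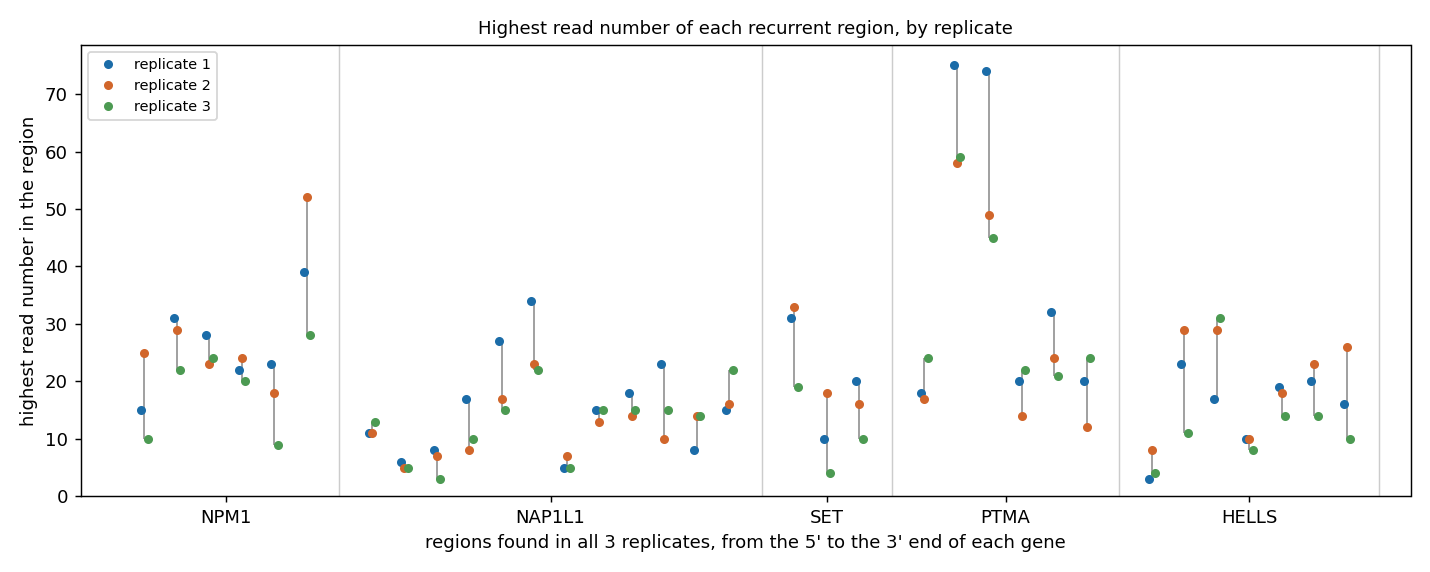
Highest read number in each of the 34 regions found in all 3 replicates, in order from the 5' to the 3' end of each gene, with 1 point per replicate and a line from the lowest to the highest. The 2 tallest regions are those of PTMA at means of 64.0 and 56.0, and the SET region with 10, 18 and 4 shows the widest ratio.

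Whether a member peak recurred went with its read number. Of 23 member peaks with a read number of 3 or 4, 4 lay in a recurrent region, and of 48 with 5 to 9, 14 did. The count rose to 52 of 77 for read numbers of 10 to 19, and to 44 of 47 for 20 to 49, and all 6 peaks of 50 or more, which were those of PTMA and NPM1, were recurrent. Over all gene IDs the shares in the same classes were 4.84%, 22.1%, 57.1%, 87.1% and 90.6%. Because recurrence and read numbers chose the members, nothing is read from the contrast with these shares. By the members' own gene IDs, the HELLS peak of replicate 3 described above was the only member peak of 20 or more seen in a single list. Over all lines of replicates 1, 2 and 3, 16.9%, 17.0% and 14.8% lay in a recurrent region.

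To place the 5 genes among others of their kind, 86 genes of histone chaperones and chromatin remodellers were counted. The members, which are part of this list, were chosen for their values, so the other 81 are given apart. The list itself was also chosen with earlier results of these data known, so nothing is read from the shares below. Of these 81, 66 had a peak in at least 1 list and 17 held a region found in all 3 replicates. That is 25.8% of the genes with a peak, against 21.6% of all gene IDs with a peak. It is 21.0% of all 81 genes, against 6.25% of 20052 protein-coding genes in RefSeq. Among the 34 other histone chaperone genes 9 held a recurrent region, and among the 47 other remodeller genes 8 did. RNA levels were not measured, and their part in these counts was not tested.

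Of the chaperone genes outside the 5, NCL had the most regions. It encodes the nucleolar protein nucleolin, held 7 recurrent regions and summed to 334, 464 and 304. These values lay above all 5 members in every replicate by the members' own gene IDs. HELLS with both of its IDs had 381 in replicate 3. ANP32E, which encodes a chaperone that removes the histone variant H2A.Z, held 3 and summed to 101, 114 and 91. NASP, a chaperone gene for H3 and H4, also held 3, with 39, 35 and 52. RBBP4, which encodes a histone-binding subunit of several chromatin complexes, held 2 with 91, 87 and 96, and ANP32B, an ANP32E relative, held 2 with 74, 51 and 24. The other NAP1L and NPM genes of the list, and PTMS, had little. NAP1L4 summed to 25, 33 and 33 with no recurrent region, and NAP1L3 had 1 peak line of 3 reads in replicate 2. NPM2, NPM3, NAP1L2, NAP1L5 and PTMS held no peak in any list. This covers relatives by gene name only.

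Among remodeller genes HELLS stood above the rest of the list in every replicate. SMARCC1, a core subunit of the SWI/SNF complexes, held 4 recurrent regions and summed to 65, 88 and 58. HLTF, a helicase-like gene of the SNF2 family that acts in DNA damage tolerance, held 3 with 61, 64 and 111, and PBRM1, a SWI/SNF subunit with several bromodomains, held 3 with 86, 70 and 65. CDCA7, the protein partner of HELLS, summed to 3, 3 and 14 without a recurrent region. The remodeller genes CHD5 and ERCC6 and the chaperone genes HIRA and IPO4 were among the 15 of all 86 genes with no peak. The relatives of the members and CDCA7 were picked out after their values were seen.

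**Figure D5:**
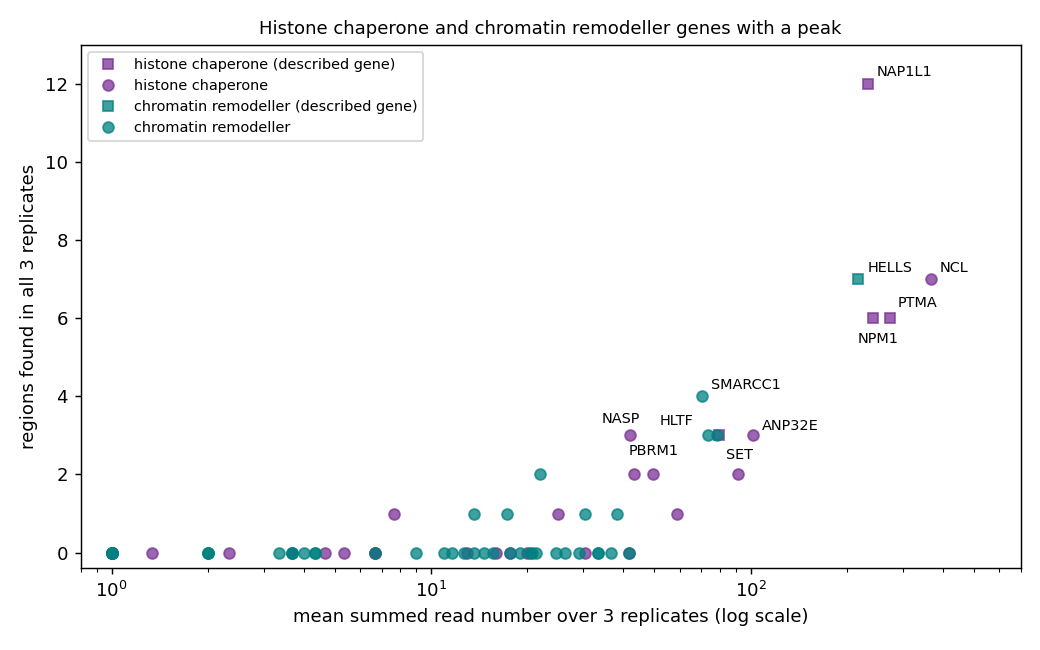
Number of regions found in all 3 replicates (vertical) against the mean summed read number on a log scale (horizontal) for the 71 genes of the list with a peak, 1 point per gene and squares for the 5 described genes. Genes with 3 or more regions are named; NAP1L1 lies highest with 12 regions, and NCL farthest to the right with a mean of 367.

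For each member, other genes with the same number of recurrent regions were ordered by nearness of their mean summed read number. Those named here were picked for nearness, so their closeness follows from the choice. Nearest to SET among 110 such genes were EIF3A, a translation initiation factor gene, with 75, 71 and 94, and EIF4G3, a gene of the same class, with 40, 76 and 121. Nearest to HELLS were BCLAF1, with 238, 202 and 249, and the helicase gene DDX3X, with 261, 237 and 233. Close to NPM1 was RPRD1A, with 194, 199 and 252. For PTMA the nucleolar helicase gene DDX21 was picked, with 347, 384 and 299, above PTMA in every replicate. NAP1L1 had no near neighbour, since the only other gene with 12 regions, NUCKS1, summed to a mean of 1868 against 233.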

How the data were processed

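Per the labels, 3 easyCLIP libraries were made from HEK293T cells with HA-tagged HNRNPA0. The authors deposited 1 peak list per replicate (called per sample), on hg38. The submitters' processing notes name bedtools and deepTools, with no version. Adapters carried random bases as molecular identifiers, per the series' design text. Which aligner and peak caller were used, and whether duplicates were collapsed, is not given in the sources used here. A deposited line holds a p-value, all under 0.05 with no adjustment stated, and a name (an unlabelled text value, another kind of deposited value) whose last number was read as the read number. 

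Peaks of 1 gene ID and strand that overlapped by 1 bp or more were merged into regions with Python 3.11.15 and pandas 2.3.3, tested on simulated data. Gene IDs were tied to RefSeq (GRCh38.p14) genes that hold 90% of their peak centres on a matching strand where the strand is known: 6135 of 6583 to 1 gene, 217 to several and 231 to none. For a gene with several IDs, the ID with the most lines was used. Planned motif counts needed peak sequences, which were not used here.

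The members and the 86-gene list were chosen with earlier results of these data known. Named genes were the 5 members, the 8 list genes with most recurrent regions, 4 without a peak in alphabetical order, the 2 genes nearest to each member in summed read number at the same number of recurrent regions, and HNRNPA0. A gene that this rule names is not reported here. No test was run, since there is 1 group. Depth is known only as read numbers in peaks. Alternatives covered the overlap, touching peaks, p-value, number of replicates, gene assignment and each replicate left out.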

Additional observations from a re-analysis of the deposited data

How the results depend on the processing

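Where peaks had to share 50% of their length each way, recurrent regions fell in HELLS to 4, a move of over 1.5 times. They also fell in every other member, to 8 in NAP1L1, 4 in NPM1, 2 in SET and 5 in PTMA. When 2 or more replicates sufficed, counts rose by over 1.5 times to 11 in NPM1, 6 in SET and 12 in HELLS. The 86-gene list then went from 22 genes to 43. With 1 replicate left out, a region needed the 2 remaining lists. The counts were then 7 to 8 in NPM1, 12 to 13 in NAP1L1, 3 to 6 in SET, 6 in PTMA and 8 to 10 in HELLS, and 31 to 35 genes of the list. The 6 in SET came without replicate 1 and the 35 genes without replicate 2. Joining touching peaks changed no member's count, and keeping the 50% of lines with the lowest p-values gave 11 in NAP1L1, 6 in HELLS and 16 genes of the list. Counting each run of touching peaks once gave PTMA a sum of 218, a move larger than the SD. All peaks in the interval gave HELLS 340, with overlapping lines of both its IDs counted unless identical. The share in the final 10% of the gene was not recounted that way. Without 1 replicate the sums were 219 to 271 in NPM1, 204 to 255 in NAP1L1, 71.5 to 88.5 in SET, 245 to 295 in PTMA and 199 to 251 in HELLS. With each peak counted once, the final 10% of the gene held 18.4% in NPM1, 40.5% in SET, 18.2% in PTMA and 40.1% in HELLS. Without 1 replicate it held 22.3% to 24.9%, 25.5% to 34.3%, 9.83% to 10.8% and 45.3% to 50.0% of the read number in these genes, and 0% in NAP1L1. Low read numbers limit the rest, since a peak near 3 reads seldom recurs. No paired analysis was possible because there is 1 group.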
